A study of Mus musculus with 12 samples.

Results

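Actb, Gapdh, Eef1a1, Lyz2, Cd68 and Ptprc are transcripts that macrophages normally hold in quantity, yet each received few reads in these libraries. They are 6 of the 24552 gene symbols in the deposited count table, and they were chosen by name, with their low mean counts over the libraries already known, so their levels are described here without a test. All 6 passed the filter on low counts. The cells were mouse macrophages differentiated from bone marrow by 6 days of culture with 10 ng/ml M-CSF, the macrophage growth factor, in every group, and their poly(A) RNA was sequenced. A 1 h exposure to vehicle (DMSO) or to 50 nM ISRIB came first, and the M1-like cells were then given 10 ng/ml LPS with 25 ng/ml IFN-γ for 16 h. M0 and M1-like cells with vehicle and with ISRIB formed 4 groups of 3 libraries each. The labels do not spell out what the M0 cells received during the stimulation, and strain, sex and age were not given in the labels. ISRIB, a small molecule, counteracts the integrated stress response, in which phosphorylation of eIF2 reduces general translation while ATF4 is made. The labels call the 3 libraries of a group biological replicates without naming separate animals or cultures, so p-values measure the spread between these libraries only.

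The genes fall into 2 kinds. Actb encodes cytoplasmic beta-actin, Gapdh a glycolytic enzyme and Eef1a1 the factor that brings aminoacyl-tRNA to the ribosome, and all are often used as reference genes because most cells express them strongly. Lyz2 encodes the lysozyme of macrophages and neutrophils, Cd68 a heavily glycosylated protein of late endosomes and lysosomes, and Ptprc the receptor tyrosine phosphatase CD45, which is carried by nearly all leukocytes and acts on SRC family kinases. LPS acts through TLR4 and IFN-γ through its own receptor, and together they move macrophages toward an inflammatory state with rapid glycolysis.

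Library totals ranged from 439976 to 514037 counts, so that 1 count was worth 1.75 to 2.52 CPM (TMM-scaled counts, the unit of all levels given here). The 6 genes together held 0.0773% of all counts, and between 0.0483% and 0.112% of any library. In a stranded protocol the position of a gene relative to its neighbours on the other strand matters, and the strand setting used for counting was not given in the sources used here. Of the 24030 symbols found in the GENCODE vM21 annotation of GRCm38, 24.1% shared exon sequence with a gene on the opposite strand, and these symbols held 92.3% of the matched counts. Of these genes, 5 of 6 had no such neighbour and so lay among the symbols that shared the remaining 7.73%, and Gapdh overlapped the opposite-strand gene Iffo1 by 68 bases. Which strand the reads of these genes came from cannot be told from a count table. If the counting used the setting opposite to the kit's, the counts of all 6 genes would be of reads antisense to them rather than of their messenger RNA, and every level and change given here would have to be read so. This was not tested.

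Within the 18235 symbols without an opposite-strand neighbour, Lyz2 ranked 27th by mean count, Actb 30th, Eef1a1 115th, Cd68 448th and Ptprc 561st. Among all 24552 symbols the same genes ranked 433rd, 451st, 948th, 1809th and 2031st, with Gapdh at 1362nd. Mean counts over the 12 libraries were 153.4 for Lyz2, 142.0 for Actb, 37.9 for Eef1a1, 17.5 for Gapdh, 9.92 for Cd68 and 7.92 for Ptprc. The median over the 2356 genes that passed the filter was 23.9, so Gapdh, Cd68 and Ptprc lay below the middle of the tested genes. Per kilobase of annotated exon Cd68 moved ahead of Gapdh, because the exon model of Cd68 is 1257 bases long and that of Gapdh 4133. The exon models of Lyz2 and Ptprc are 1316 and 18313 bases long, and these genes stayed first and last. The mean level over all libraries was 225.6 CPM per kb for Lyz2, 120.8 for Actb, 32.9 for Eef1a1, 15.6 for Cd68, 9.69 for Gapdh and 0.924 for Ptprc.

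Markers of other cells of a marrow culture were at or near 0. Of the 8 neutrophil markers, 5 were at 0 in all libraries and the summed count of all 8 lay between 0 and 4. The sums were 0 to 2 for 6 T cell markers and 0 to 4 for 4 B cell markers, and all 5 stromal and all 3 erythroid markers were at 0. The dendritic cell list differed, through Xcr1, a chemokine receptor gene with 6 to 17 counts in vehicle M0, 10 to 19 in ISRIB M0, 325 to 404 in vehicle M1 and 407 to 434 in ISRIB M1, while Flt3 and Zbtb46 were at 0. Xcr1 was higher in M1 at an adjusted p under 0.05 in both treatments, as were 24.3% of tested genes in vehicle and 23.9% in ISRIB. Its log2 fold change was 5.37 in vehicle and 5.10 in ISRIB. Whether dendritic cells had a part in the changes between M0 and M1 was not tested. The summed count of 38 macrophage identity genes was 727 to 1209 in vehicle M0 and 447 to 750 in vehicle M1. In ISRIB it was 747 to 1041 in M0 and 722 to 821 in M1. Of these genes, Csf1r (8 to 71 counts), Itgam (4 to 49) and Adgre1 (4 to 66) were counted in every library, although Csf1r overlaps Hmgxb3 on the opposite strand. Others were not, such as Mrc1 and Trem2, which were at 0 in all M1 libraries. Some housekeeping genes were as low, with Hprt at 0 to 4 counts and Tbp at 0 in all libraries. A marker at 0 therefore does not show that its cell type was absent. In bulk RNA, fewer cells of a type and less RNA per cell cannot be told apart.

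**Figure D1:**
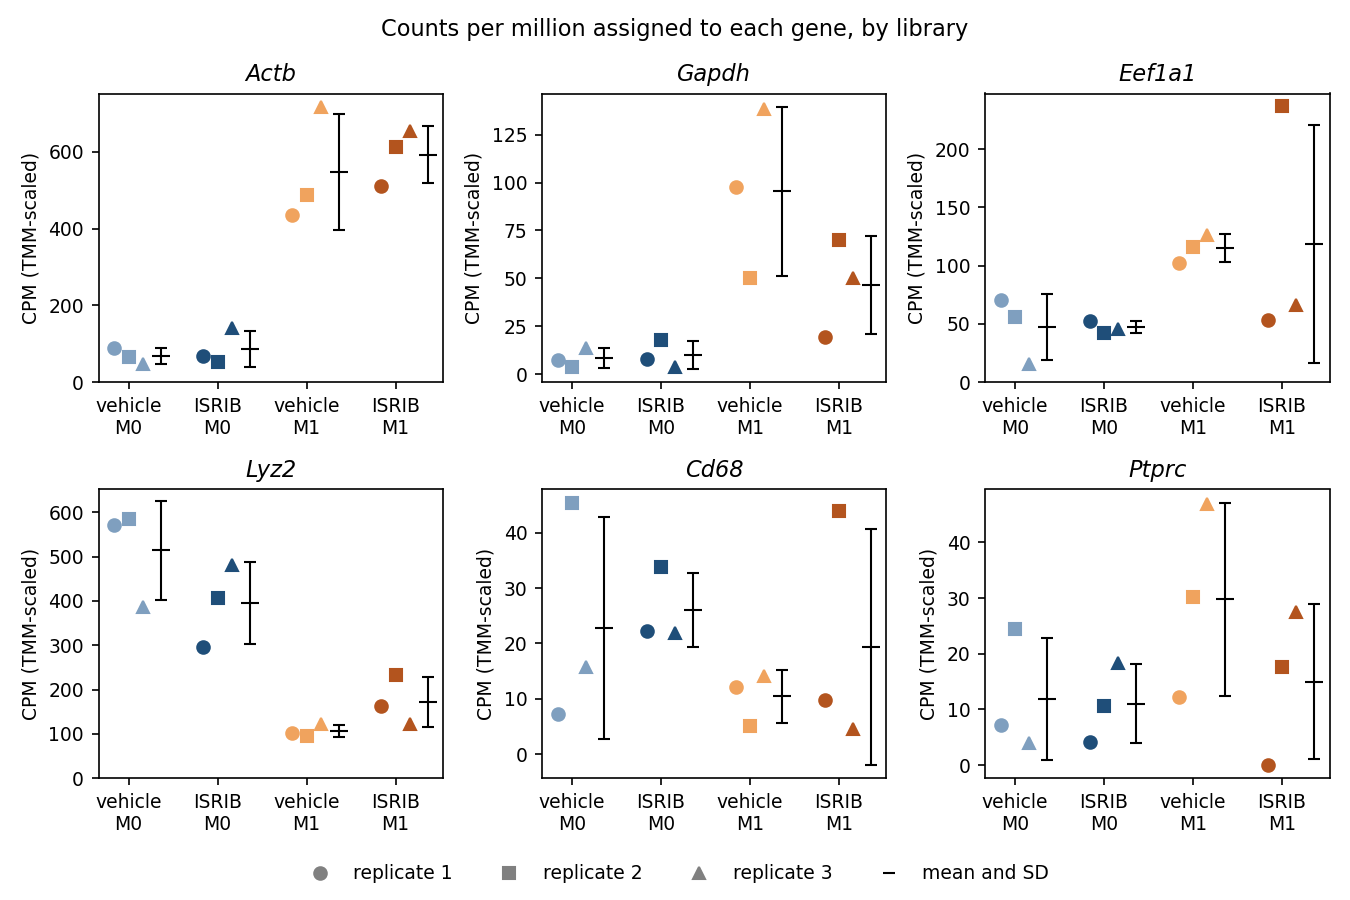
Level of each gene in each of the 12 libraries, in TMM-scaled CPM on linear axes that differ between panels, with a symbol for each replicate and bars for the group mean ± SD (n = 3). Actb and Gapdh are higher in all 6 M1 than in all 6 M0 libraries, as are 19.7% of tested genes. Lyz2 is lower, as are 16.2%, and the libraries of Cd68 and Ptprc overlap.

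Between M0 and M1 cells, 3 of the 6 genes were higher (Actb, Gapdh, Eef1a1) and 1 was lower (Lyz2) at an adjusted p under 0.05, in vehicle and again in ISRIB. Of all 2356 genes tested, 44.8% were called in vehicle (24.3% higher and 20.5% lower) and 44.8% in ISRIB (23.9% higher and 20.9% lower), and the 4 calls of 6 stand beside those shares. Scaling to library totals without a composition factor lowered M1 against M0 differences by 0.30 on the log2 scale, and the calls then split into 460 higher and 658 lower in vehicle, against 572 and 483 with TMM, and into 437 and 673 in ISRIB, against 563 and 493. Actb, Gapdh and Lyz2 kept their direction and their call under that scaling, and Eef1a1 lost its call.

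Actb lies on chromosome 5 (chr5:142903115-142906754, minus strand, GRCm38). Its counts in replicates 1, 2 and 3 were 49, 38 and 24 in vehicle M0 and 178, 194 and 306 in vehicle M1. In ISRIB they were 33, 29 and 77 in M0 and 210, 280 and 286 in M1. All 6 M1 libraries lay above all 6 M0 libraries, as did those of 19.7% of tested genes. In CPM the group means were 67.5 ± 20.6 (SD, n = 3) and 547 ± 151 in vehicle M0 and M1, and 86.5 ± 47.7 and 593 ± 73.5 in ISRIB M0 and M1. The log2 fold change was 3.01 ± 0.29 (SE) in vehicle, 8.05-fold, with an adjusted p of 3.19e-09 by edgeR's quasi-likelihood F-test (Benjamini-Hochberg adjusted), the test behind every adjusted p given here. In ISRIB it was 2.77 ± 0.28, 6.83-fold, with an edgeR adjusted p of 8.28e-09. Replicate 3 of ISRIB M0 was the highest M0 library, and without it the ISRIB value was 3.32.

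Actg1, the gene of cytoplasmic gamma-actin and the closest relative of Actb, was counted an order lower. It had 4, 2 and 4 counts in vehicle M0, 28, 18 and 25 in vehicle M1, 10, 2 and 11 in ISRIB M0, and 40, 24 and 6 in ISRIB M1. The M1 libraries lay wholly higher in vehicle, as did those of 27.7% of tested genes, and the ISRIB groups overlapped. The log2 fold changes were 3.17 ± 0.74 in vehicle (edgeR adjusted p = 0.00103) and 1.89 ± 0.67 in ISRIB (edgeR adjusted p = 0.0248). Over windows of 50 bases, 9.12% of the Actb exon sequence also occurred in 18 other genes, led by Lrrc58 (6.14%) and Gm15725 (4.32%), and 1.03% occurred in Actg1. Actg1 shares 147 exon bases with Gm23419 and Mir6935 on its own strand, and the effect of this on its counts was not tested.

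Gapdh (chr6:125161715-125166467, minus strand) was the rarest of the reference genes. It had 4, 2 and 7 counts in vehicle M0 and 40, 20 and 59 in vehicle M1. In ISRIB it had 4, 10 and 2 counts in M0 and 8, 32 and 22 in M1. Gapdh passed the filter on low counts only through its M1 libraries, so its rise is not independent of that filter. Every M1 library was above every M0 library in CPM, as in 19.7% of tested genes. In counts, 1 ISRIB M1 library was below 1 ISRIB M0 library. Group means were 8.19 ± 5.24 and 95.5 ± 44.1 CPM in vehicle M0 and M1, and 9.85 ± 7.21 and 46.7 ± 25.5 CPM in ISRIB M0 and M1. The log2 fold change was 3.53 ± 0.66 in vehicle (11.5-fold, edgeR adjusted p = 9.51e-05) and 2.21 ± 0.65 in ISRIB (4.63-fold, edgeR adjusted p = 0.00741). Leaving out replicate 2 of ISRIB M0 moved the latter to 2.95.

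The opposite-strand neighbour Iffo1 was also counted mostly in M1 libraries, at lower counts. It had 0, 0 and 0 counts in vehicle M0, 2, 12 and 13 in vehicle M1, 0, 0 and 2 in ISRIB M0, and 4, 10 and 0 in ISRIB M1. Gapdh also has many processed copies in the mouse genome, and 24.7% of its 50-base windows occurred in 218 other annotated genes. Its level is uncertain for that reason, since reads shared with copies may have been dropped or split.

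Eef1a1 (chr9:78478449-78489151, minus strand) had the smallest change in vehicle of the genes that passed the test. Vehicle M0 had 39, 32 and 8 counts and vehicle M1 had 42, 46 and 54. ISRIB M0 had 26, 24 and 25 counts and ISRIB M1 had 22, 108 and 29. In CPM the M1 libraries lay above the M0 libraries in vehicle, as did those of 27.7% of tested genes. In ISRIB they did so by a small margin, 53.6 against 52.8 CPM, where 28.7% of tested genes had M1 libraries wholly higher. That margin came with the scaling, since replicate 1 of ISRIB M1 had fewer counts than any ISRIB M0 library and a lower share of its library, 0.00469% against 0.00485% to 0.00566%. The 6 M1 and the 6 M0 libraries overlapped when treatments were joined. Group means were 47.4 ± 28.3 and 115 ± 12.04 CPM in vehicle M0 and M1, and 47.1 ± 5.21 and 119 ± 102 CPM in ISRIB M0 and M1. The log2 fold change was 1.26 ± 0.48 in vehicle (2.40-fold, edgeR adjusted p = 0.0342) and 1.34 ± 0.48 in ISRIB (2.53-fold, edgeR adjusted p = 0.0255).

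These Eef1a1 calls rested on single libraries. The ISRIB value fell to 0.37 (edgeR adjusted p = 0.579) without replicate 2 of ISRIB M1, which held 108 counts. The vehicle value was 0.86 (edgeR adjusted p = 0.165) without replicate 3 of vehicle M0, its lowest library. In vehicle the call was lost in 5 of the 12 fits that left out 1 library, and in ISRIB in 3. With limma on the log2 values the ISRIB change was 1.05 and lost its call (limma adjusted p = 0.0965), so that 3 of the 6 genes were called there, while the vehicle call held. Scaling to library totals gave 0.96 (edgeR adjusted p = 0.112) and 1.07 (edgeR adjusted p = 0.0778). Of its 50-base windows, 39.4% occurred in 20 other genes, the highest share of the 6, while Eef1a2, its relative of neurons and muscle, was at 0 in all 12 libraries. Eef1a1 also shares 108 exon bases with Gm26377 on its own strand, and the effect of this on its counts was not tested.

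Lyz2 is the gene that fell. It lies at chr10:117277331-117282321 on the minus strand, beside its duplicate Lyz1, the lysozyme known mainly from intestinal Paneth cells, with 5475 bases between the gene bodies. The 250 bases before each start are shown because both copies fell together in these libraries. They are from RefSeq (GRCm38.p6, minus strand), and capitals mark AGGAAGT, a core of the binding site of the myeloid factor PU.1, here on the other strand and so read as ACTTCCT.

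Lyz2 chr10:117282273-117282522: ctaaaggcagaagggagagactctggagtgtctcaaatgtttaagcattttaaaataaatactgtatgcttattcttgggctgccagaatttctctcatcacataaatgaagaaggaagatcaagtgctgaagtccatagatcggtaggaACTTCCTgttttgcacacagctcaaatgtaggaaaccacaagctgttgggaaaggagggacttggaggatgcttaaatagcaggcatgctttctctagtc
Lyz1 chr10:117292869-117293118: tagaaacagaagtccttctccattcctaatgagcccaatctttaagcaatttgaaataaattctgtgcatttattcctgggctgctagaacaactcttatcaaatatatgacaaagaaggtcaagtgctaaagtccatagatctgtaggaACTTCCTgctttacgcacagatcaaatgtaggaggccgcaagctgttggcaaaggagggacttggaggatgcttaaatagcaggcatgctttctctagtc

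The 2 windows were identical at 200 of 252 alignment columns (79.4%), and the last 50 bases before the RefSeq start were the same. In GENCODE the Lyz2 gene reaches to 117282321, so most of those 50 bases lie within it. AGGAAGT stood at positions -100 to -94 from the start in both. It was searched on both strands after the sequences had been seen, and 7.69% of the 32851 RefSeq promoter windows of this length hold it. GAGGAA (held by 23.3%), TATAAA (12.4%) and TGAGTCA (4.46%), searched the same way, were in neither lysozyme window. Of the 6 genes, 5 had an entry in the promoter table. The windows of Gapdh, Eef1a1 and Ptprc lie within the gene bodies that GENCODE gives. Ptprc has 2 listed starts with overlapping windows. One held AGGAAGT once and the other at 2 positions, of which 1 is the same site, along with GAGGAA and TATAAA. Cd68 held GAGGAA once and TGAGTCA, a site of AP-1 factors, at 2 positions, and Gapdh and Eef1a1 held none of the 4 motifs. Such matches describe letters only.

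The Lyz2 counts were 316, 334 and 195 in vehicle M0 and 42, 38 and 52 in vehicle M1. In ISRIB they were 146, 229 and 263 in M0 and 67, 106 and 53 in M1. All 6 M1 libraries lay below all 6 M0 libraries, as did those of 16.2% of tested genes. Group means were 514 ± 111 and 107 ± 13.7 CPM in vehicle M0 and M1, and 395 ± 92.8 and 172 ± 56.1 CPM in ISRIB M0 and M1. The log2 fold change was -2.26 ± 0.25 in vehicle, 4.80-fold lower in M1, with an edgeR adjusted p of 3.56e-08. It was -1.19 ± 0.24 in ISRIB, 2.29-fold lower, with an edgeR adjusted p of 0.000192.

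Lyz1 had 20, 9 and 29 counts in vehicle M0 and 6, 2 and 2 in vehicle M1. It had 17, 18 and 36 counts in ISRIB M0 and 2, 2 and 5 in ISRIB M1. Again no M1 library reached an M0 library, as in 16.2% of tested genes. The log2 fold changes were -2.12 ± 0.74 (edgeR adjusted p = 0.0211) and -2.63 ± 0.75 (edgeR adjusted p = 0.00547). Since 15.4% of the 50-base windows of Lyz2 occurred in Lyz1 as well, part of the counts of either gene could belong to the other.

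Because Actb rose and Lyz2 fell, their order switched between the states. The ratio of Actb to Lyz2 counts within a library, which needs no scaling between libraries, was 0.114 to 0.155 in vehicle M0 and 4.24 to 5.88 in vehicle M1. In ISRIB it was 0.127 to 0.293 in M0 and 2.64 to 5.396 in M1. Per kilobase, Lyz2 led in vehicle M0 at 390 ± 84.3 CPM per kb against 25.2 ± 7.69 for Actb, and Actb led in vehicle M1 at 204 ± 56.2 against 81.1 ± 10.4 for Lyz2. The ratio of Actb to Gapdh did not separate the states, at 3.43 to 19.0 in vehicle M0 and 4.45 to 9.70 in vehicle M1.

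Cd68 (chr11:69664213-69666153, minus strand) had 4, 26 and 8 counts in vehicle M0 and 5, 2 and 6 in vehicle M1. In ISRIB it had 11, 19 and 12 counts in M0 and 4, 20 and 2 in M1. The groups overlapped in both treatments. Cd68 passed the filter on low counts mainly through its M0 libraries, so its difference between states is not independent of that filter. Group means were 22.8 ± 20.04 and 10.4 ± 4.78 CPM in vehicle M0 and M1, and 26.0 ± 6.71 and 19.4 ± 21.3 CPM in ISRIB M0 and M1. The log2 fold changes were -1.11 ± 0.86 in vehicle, with a 95% interval of -2.89 to 0.67 (edgeR adjusted p = 0.313), and -0.41 ± 0.81 in ISRIB, with an interval of -2.08 to 1.26 (edgeR adjusted p = 0.706). Both intervals hold 0 and also a fall of 4-fold. No 50-base window of Cd68 occurred in another gene.

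Ptprc (chr1:138062861-138175708, minus strand) was the least counted. It had 4, 14 and 2 counts in vehicle M0 and 5, 12 and 20 in vehicle M1. It had 2, 6 and 10 counts in ISRIB M0 and 0, 8 and 12 in ISRIB M1. Ptprc passed the filter on low counts mainly through its M1 libraries, so its difference between states is not independent of that filter. The groups overlapped, and the library at 0 allows up to 3 counts, or 7.31 CPM, of which the limit covers counting error only. Group means were 11.9 ± 11.0 and 29.8 ± 17.4 CPM in vehicle M0 and M1, and 11.0 ± 7.12 and 14.995 ± 13.9 CPM in ISRIB M0 and M1. The log2 fold changes were 1.29 ± 0.94 in vehicle, with a 95% interval of -0.65 to 3.24 (edgeR adjusted p = 0.280), and 0.44 ± 0.98 in ISRIB, with an interval of -1.57 to 2.45 (edgeR adjusted p = 0.745).

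**Figure D2:**
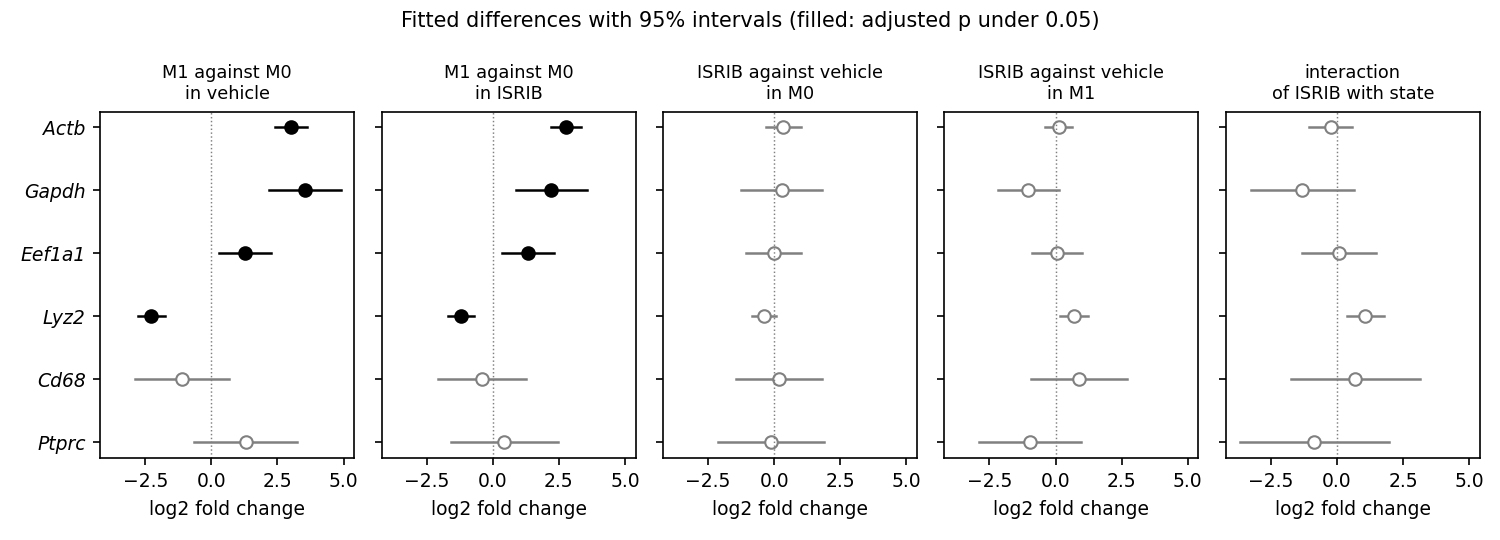
Log2 fold change of each gene in the 5 contrasts, with points for estimates and bars for unadjusted 95% intervals from the edgeR fit, and filled points for an adjusted p under 0.05. The M1 against M0 values of Actb, Gapdh, Eef1a1 and Lyz2 are filled in both treatments, and no point is filled in the ISRIB contrasts or the interaction.

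ISRIB changed none of the 6 genes past the threshold. With edgeR, 0 of 6 were called in M0, in M1 or in the interaction of ISRIB with state, where 0% of all tested genes were called, and DESeq2 and limma on the log2 values also called 0 of 6. At an unadjusted p under 0.05 edgeR gave 0 of the 6 in M0, 1 in M1 and 1 in the interaction, and that gene was Lyz2 in both cases. The ISRIB and vehicle libraries of all 6 genes overlapped in M0, where those of 5.56% of tested genes lay wholly higher and 5.73% wholly lower, and in M1, where the shares were 5.35% and 6.41%. These contrasts share the libraries of the M1 against M0 comparisons.

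For Lyz2 the ISRIB against vehicle difference was 0.69 ± 0.26 in M1, with an unadjusted 95% interval of 0.15 to 1.23 (edgeR adjusted p = 0.809). It was -0.38 ± 0.22 in M0, with an interval of -0.84 to 0.08 (edgeR adjusted p = 0.907). The lowest ISRIB M1 library, at 121 CPM, lay just under the highest vehicle M1 library, at 122 CPM. The interaction, which asks whether the fall from M0 to M1 differed between treatments, was 1.07 ± 0.34 with an edgeR adjusted p of 0.430. It was positive in all 20 fits run, at 0.79 to 1.26 when 1 library was left out, and was called in none. The adjusted p over those 12 fits was 0.262 to 0.626.

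For Actb the intervals were narrower than for the other reference genes. The ISRIB against vehicle difference was 0.35 ± 0.31 in M0, with an interval of -0.30 to 1.00, and 0.12 ± 0.25 in M1, with an interval of -0.40 to 0.63. A change of Actb by ISRIB of more than 2-fold in M1 therefore lay outside its interval. For Gapdh the difference was 0.29 ± 0.75 in M0 and -1.03 ± 0.56 in M1, with an interval in M1 of -2.19 to 0.14 (edgeR adjusted p = 0.859) and overlapping libraries. For Eef1a1 it was -0.02 ± 0.50 in M0 and 0.05 ± 0.46 in M1, and the M1 interval ran from -0.89 to 1.00. For Cd68 it was 0.18 ± 0.79 and 0.88 ± 0.88, and for Ptprc -0.11 ± 0.97 and -0.97 ± 0.94. The intervals of Cd68 and Ptprc were over 3 log2 units wide and left both directions within reach.

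**Figure D3:**
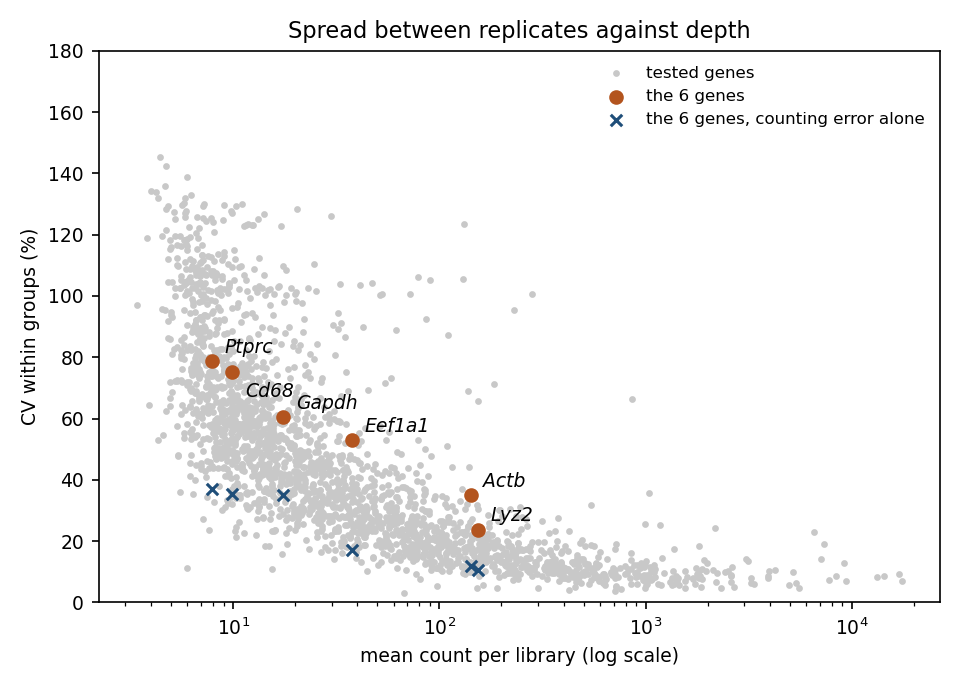
Coefficient of variation between libraries of a group, pooled over the 4 groups, against mean count on a log axis, for all 2356 tested genes (grey) and the 6 named genes (orange), with crosses for the value that counting error alone would give for the 6 genes. Each of the 6 lies above its cross, between 23.7% for Lyz2 and 78.7% for Ptprc. The crosses take each count as independent.

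The spread between replicates was set beside counting error as a description. The coefficient of variation within groups was 23.7% for Lyz2, 34.96% for Actb, 52.9% for Eef1a1, 60.4% for Gapdh, 75.1% for Cd68 and 78.7% for Ptprc. Counting error alone would give 10.5% for Lyz2, 11.9% for Actb, 17.2% for Eef1a1, 35.1% for Gapdh, 35.2% for Cd68 and 37.0% for Ptprc. The ratio of observed to counting variation was 1.72 for Gapdh, 2.13 for Cd68 and Ptprc, 2.25 for Lyz2, 2.93 for Actb and 3.08 for Eef1a1, against a median of 1.77 over all tested genes. Eef1a1 also varied most between groups in its spread. The variance of its scaled counts over their mean was 39.98 in ISRIB M1 and 0.159 in ISRIB M0.

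Even counts were common. Of the 72 values of these genes, 54 were even numbers, and of the 22 values from 1 to 10, 19 were. Over all genes, 66.3% of values from 1 to 10 and 50.2% of values above 20 were even, and for these genes 27 of 40 values above 20 were. The counting errors given here, and the ratios of observed to counting variation, take each count as independent, which the share of even counts puts in question. With counts halved and rounded up, the M1 against M0 calls of Actb, Gapdh, Eef1a1 and Lyz2 held in both treatments.

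The wider groups to which these genes belong were read from lists of 14 to 38 genes, and each count stands beside the median log2 fold change of the list and of all tested genes, which was 0.01 in vehicle and -0.01 in ISRIB. Each list count is to be read beside the shares of all tested genes. In vehicle 24.3% were called higher and 20.5% lower, and in ISRIB 23.9% and 20.9%. The 760 tested genes without an opposite-strand neighbour, the class of most of these genes, had a median of 0.43 in vehicle and 0.37 in ISRIB. In vehicle 44.2% of them were called, 221 higher and 115 lower. In ISRIB 222 were called higher and 121 lower. In the ISRIB contrasts and the interaction edgeR called 0 genes of any list. Some list genes passed the filter through 1 state only, so their changes are not independent of it. Among those named, Hk3, Aldoa, Pgk1, Tmsb10, Marco, Fcgr1, Ctsc and Lamp2 passed through M1 libraries only. Cebpa, Cx3cr1, Lyz1 and Atp6v1a passed through M0 libraries only. Actg1 and Cd14 passed mainly through M1 libraries and Gusb mainly through M0 libraries.

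Of 38 housekeeping genes, 22 were tested, and 12 rose and 1 fell from vehicle M0 to vehicle M1, with a median of 1.54. In ISRIB 14 rose and 0 fell, with a median of 2.05. Without Actb, Gapdh and Eef1a1 themselves, 9 of 19 rose in vehicle and the median was 1.35. B2m, the light chain of MHC class I, rose by 3.88 ± 0.47 on the log2 scale, from 14, 10 and 0 counts to 101, 72 and 96 (edgeR adjusted p = 1.64e-07). Pgk1, a glycolytic kinase, rose by 3.33 ± 0.98 (edgeR adjusted p = 0.00719). Gusb, the lysosomal beta-glucuronidase, went from 10, 11 and 6 counts to 0, 1 and 1 in vehicle, a log2 fold change of -3.15 ± 1.11 (edgeR adjusted p = 0.0227), and was not called in ISRIB at -0.93 ± 0.81. Its vehicle call was lost without replicate 2 of vehicle M0 or replicate 1 of vehicle M1. With library totals 10 rose and 1 fell in vehicle, and 11 rose in ISRIB.

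Of 22 glycolysis genes, 11 were tested, and 6 rose in vehicle (median 2.49) and 7 in ISRIB (median 2.21), with none falling. Hk3, a hexokinase of myeloid cells, had 0, 0 and 2 counts in vehicle M0 and 24, 20 and 28 in vehicle M1. It was at 0 in the 3 ISRIB M0 libraries and had 19, 30 and 17 counts in ISRIB M1, at least 8.96-fold higher against a limit of 3 counts per library. Aldoa, aldolase A, rose by 3.93 ± 0.65, from 2, 7 and 2 counts to 67, 36 and 27 (edgeR adjusted p = 1.67e-05). Hk3 overlaps Unc5a on the opposite strand by 34 bases and Aldoa overlaps Fam57b by 25.

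Of 36 actin cytoskeleton genes, 17 were tested, and 7 rose in vehicle (median 1.35) and 10 in ISRIB (median 1.89). None fell in this fit. In vehicle 4 rose and 1 fell without replicate 3 of vehicle M1, 5 rose and 1 fell with library totals, and 1 fell with DESeq2, with limma and without replicate 3 of vehicle M0 or replicate 2 of ISRIB M0. Beside Actg1 and Actb, the largest rise was that of Tmsb10, which encodes an actin monomer-binding thymosin, from 2, 2 and 2 counts to 12, 10 and 13 in vehicle (log2 fold change 2.86 ± 0.93, edgeR adjusted p = 0.0147). In ISRIB Tmsb10 went from 0 in all M0 libraries to 8, 12 and 11 counts, at least 4.21-fold higher. Without the filter on low counts 4 actin genes were called in vehicle. Of 14 elongation factor genes only 4 were tested, and Eef1a1 was the one called in each treatment, with list medians of 1.04 and 0.58.

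**Figure D4:**
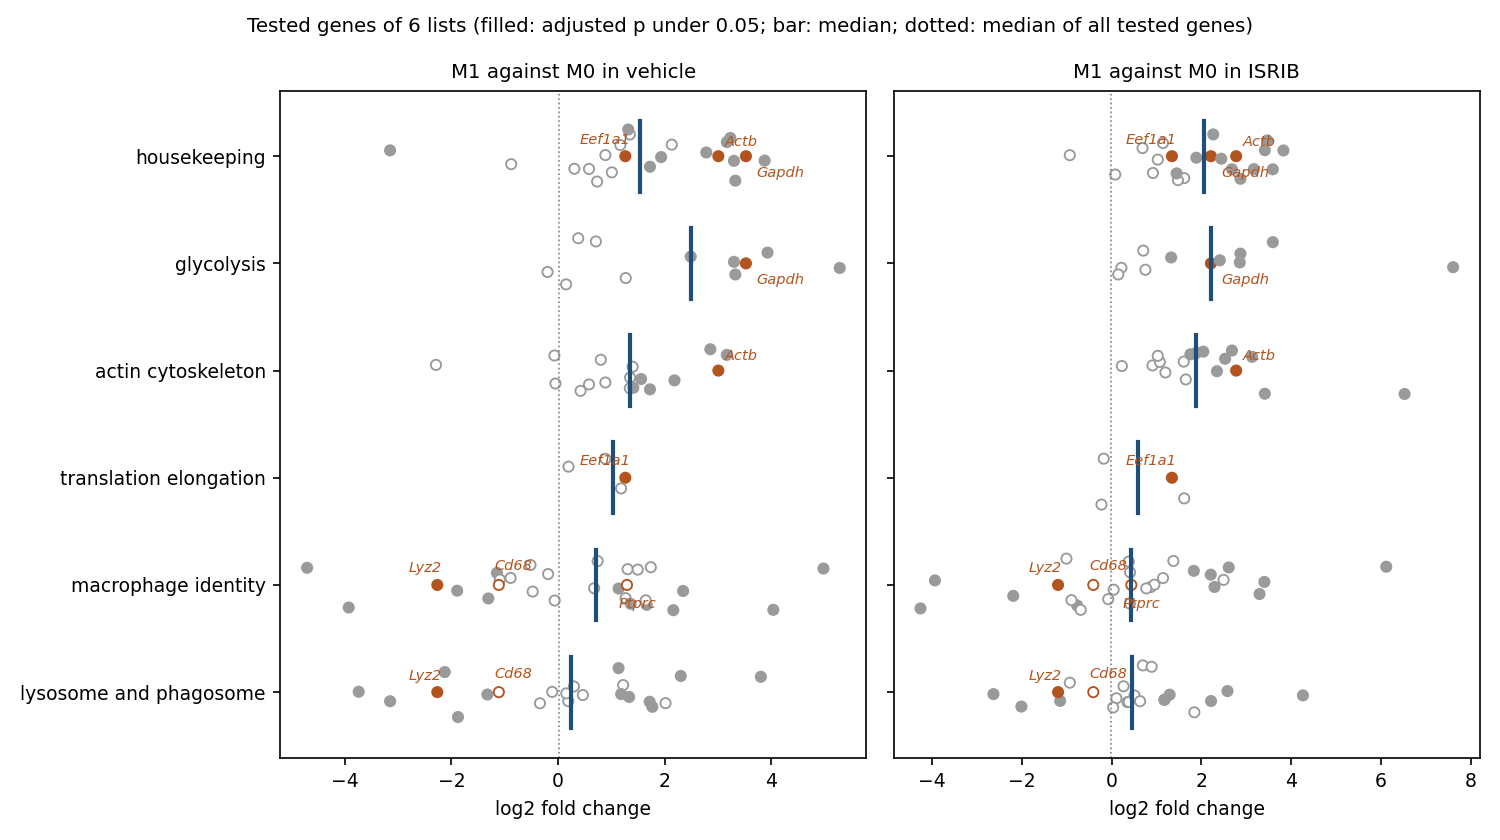
Log2 fold change from M0 to M1 of every tested gene of 6 lists, in vehicle (left) and in ISRIB (right), with filled points for an edgeR adjusted p under 0.05, a bar for the list median and a dotted line for the median of all tested genes. Housekeeping medians are 1.54 and 2.05, macrophage identity medians 0.71 and 0.42, and the 6 genes described here are named in orange.

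The macrophage identity list held rises and falls in numbers near those of the whole table, where 24.3% rose and 20.5% fell in vehicle. Of its 38 genes, 28 were tested, 7 rose and 6 fell in vehicle (median 0.71), and 7 rose and 5 fell in ISRIB (median 0.42). Without replicate 3 of vehicle M1, 4 rose in vehicle. Marco, a scavenger receptor, went from 4, 0 and 0 counts to 58, 20 and 27 in vehicle (log2 fold change 4.98 ± 0.82, edgeR adjusted p = 1.7e-05). Fcgr1, the high-affinity IgG receptor, rose by 4.04 ± 1.05 (edgeR adjusted p = 0.00265), and Cd14, the LPS co-receptor, by 2.35 ± 0.74 (edgeR adjusted p = 0.0112). Cebpa, a myeloid transcription factor, went from 28, 34 and 18 counts to 0, 0 and 2 (log2 fold change -4.71 ± 0.98, edgeR adjusted p = 0.0003). Cx3cr1, the fractalkine receptor, went from 20, 24 and 22 counts to 0, 1 and 2 (log2 fold change -3.93 ± 1.00, edgeR adjusted p = 0.00218). Cebpa and Cx3cr1 overlap Gm45091 and Gm33858 on the opposite strand, and Lyz2 had the next largest fall in the list.

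Of 33 lysosome and phagosome genes, 22 were tested, 7 rose and 6 fell in vehicle (median 0.25), and 6 rose and 4 fell in ISRIB (median 0.44), beside 24.3% higher and 20.5% lower of all genes in vehicle and 23.9% and 20.9% in ISRIB. Without replicate 1 of vehicle M1, 4 rose in vehicle, and without its replicate 2, 3 fell, as they did with only the groups compared and with halved counts. With library totals the vehicle median was -0.06, with 6 higher and 7 lower. Ctsc, the protease that activates serine proteases of granules, went from 4, 6 and 2 counts to 38, 34 and 59 (log2 fold change 3.81 ± 0.58, edgeR adjusted p = 6.19e-06). Lamp2, a lysosomal membrane protein, rose by 2.30 ± 0.70 (edgeR adjusted p = 0.00922) and Npc2, a cholesterol carrier, by 1.77 ± 0.38 (edgeR adjusted p = 0.000415). Atp6v1a, a subunit of the proton pump, went from 9, 22 and 10 counts to 2, 0 and 0 in vehicle (log2 fold change -3.74 ± 1.39, edgeR adjusted p = 0.0303), and was at 0.69 ± 1.16 in ISRIB, where it was not called.

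Around Ptprc, 6 of 23 genes of receptor phosphatases and SRC family signalling were tested, with 1 higher and 1 lower in vehicle (median 1.08) and 2 higher and 1 lower in ISRIB (median 1.39), counts that moved by 1 gene in several fits without 1 library. Lyn, a SRC family kinase, had 22, 38 and 20 counts in vehicle M0 and 101, 80 and 76 in vehicle M1 (log2 fold change 2.09 ± 0.34, edgeR adjusted p = 1.47e-05). Ptpre, a receptor phosphatase, had 190, 161 and 205 counts in vehicle M0 and 32, 77 and 71 in vehicle M1 (log2 fold change -1.23 ± 0.26, edgeR adjusted p = 0.000298). Both overlap opposite-strand genes, Lyn with Gm26857 and Ptpre with 5830432E09Rik.

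Over the 12 libraries, Actb was followed most closely in log2 CPM, among genes averaging 50 counts or more, by 9330175E14Rik, Bysl and Rsad2, with Pearson's r of 0.985, 0.983 and 0.976. Rsad2 is an antiviral interferon-induced gene. For Gapdh the closest were 4933439C10Rik (0.895), Dnah17 (0.888) and Klf3 (0.888). For Eef1a1 they were 4933408J17Rik (0.848), Tgif2 (0.844) and B2m (0.842), and for Lyz2 Gm17801 (0.960), Cdc37l1 (0.945) and Gm19557 (0.940). Each r runs over libraries of both states and so takes in the difference between them, and 9330175E14Rik, Bysl, 4933439C10Rik, Dnah17, Klf3, 4933408J17Rik, Tgif2, Cdc37l1 and Gm19557 overlap a gene on the opposite strand. Cd68 and Ptprc, with means under 10 counts, were left out of this search.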

How the data were processed

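Per the labels' protocols, the libraries were made with a stranded TruSeq mRNA kit and read on a NovaSeq6000. The authors deposited counts per gene symbol and, for the same 12 libraries, log2 values, which the files show to be the log2 of the count over a library size factor, plus 1. FastQC, HTSeq, DESeq2 and the build mm10 are named in the submitters' processing notes. The aligner, annotation and strand setting were not given in the sources used here.

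The deposited counts were fitted in R 4.3.3 with edgeR 4.0.16 (TMM scaling, filterByExpr with a minimum count of 10 and total of 15, a mean per group, no replicate block), which kept 2356 genes and 97.6% of counts. Quasi-likelihood tests gave 5 contrasts, with Benjamini-Hochberg adjustment over all 2356 genes and a threshold of 0.05. The code was tested on simulated data. A count of 0 was read against 3 counts, 0.000584% to 0.000682% of a library. Reads carry no molecular identifiers, so such limits cover counting error only. Alternatives were DESeq2 1.42.0 (size factors and Wald test), limma 3.58.1 on the log2 values, no filter, a replicate block, only the groups compared, and leaving out each library. Library totals and halved counts were added after seeing the data. The labels state no pairing, although the library names run in blocks by replicate number, and the main fit took no pairs. The 18 pairs of same-numbered libraries had deviations correlated at -0.05 to 0.10. Counting error is part of those deviations, so a low correlation cannot show that the libraries were unpaired.

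Coordinates and overlaps came from GENCODE vM21 (GRCm38), promoters from RefSeq (GRCm38.p6). The genes and lists were chosen with earlier results of these data known. Beside the 6 genes, their copies and exon neighbours, list genes were named if among the 3 largest rises or falls of a list called in vehicle. The 3 closest genes by correlation used log2 of CPM plus 2.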

Additional observations from a re-analysis of the deposited data

How the results depend on the processing

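The M1 against M0 calls of Actb, Gapdh and Lyz2 held in both treatments under every alternative that tested them and in all 12 fits without 1 library; Gapdh in ISRIB ranged from 1.81 to 2.95 (edgeR adjusted p 0.00337 to 0.0485). Gapdh in ISRIB did not pass the filter when only the groups compared were fitted, and Cd68 and Ptprc were not tested under every alternative. Calls over all genes were 894 to 1118 in vehicle and 904 to 1110 in ISRIB under the settings that kept all libraries. For ISRIB against vehicle in M0, where edgeR called 0 of all genes (143 at an unadjusted p under 0.05), DESeq2 called 3, the fit without a filter 10, and fits without 1 library 0 to 6. In M1 (0 called, 134 unadjusted) those fits gave 0 to 1. For the interaction (0 called, 167 unadjusted) the unfiltered fit gave 9, the replicate block 3 and fits without 1 library 0 to 4. The block, tried although the numbers were not shown to pair libraries, gave 1048 calls in vehicle and 1026 in ISRIB and kept all calls of the 6 genes. Signs reversed only for differences that no fit called. With limma on the log2 values, Ptprc was -0.091 from M0 to M1 in ISRIB and 0.025 for ISRIB in M0, Eef1a1 was 0.21 for ISRIB in M0, -0.27 in M1 and -0.47 in the interaction, and Cd68 -0.083 in the interaction. With the replicate block, Eef1a1 was 0.059 in M0, -0.12 in M1 and -0.18 in the interaction. Without 1 library, M0 to M1 in ISRIB ran from -1.81 to 0.043 for Cd68 and from -0.31 to 1.00 for Ptprc. ISRIB in M0 ran from -0.19 to 0.63 for Actb, -0.44 to 0.87 for Gapdh, -0.42 to 0.38 for Eef1a1, -0.22 to 1.18 for Cd68 and -0.66 to 0.95 for Ptprc. ISRIB in M1 ran from -0.025 to 0.36 for Actb, -0.92 to 0.39 for Eef1a1 and -0.53 to 1.34 for Cd68. The interaction ran from -0.51 to 0.31 for Actb, -0.91 to 0.47 for Eef1a1 and -0.72 to 1.14 for Cd68. The causes were not tested. Cd68 and Ptprc had means under 10 counts, where counting error alone would give a coefficient of variation of 35.2% and 37.0%.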
